A study of Mus musculus with 7 samples.

Results

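The 31 genes described here are secreted products of the pancreas, 25 from its exocrine acinar cells and 6 from its endocrine islets, measured in bulk polyadenylated RNA of mouse spleen. They were taken by name from the 55414 genes of the count table, with no filter on counts, and all 31 were found. The 7 libraries were 3 labelled WT, with the genotype C57BL/6N, and 4 labelled Fpr2KO, which lack the formyl peptide receptor gene Fpr2. For the Fpr2KO mice the sources used here give no background strain, and for none of the mice an age, a sex or a treatment. Nothing in the labels ties a replicate number to its own animal, so the p-values measure only the spread between these samples. Which libraries stood out was known when the genes were chosen, so the levels of Fpr2KO replicates 1 and 2 against the other 5 libraries are given as a description, with no test.

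Acinar cells make digestive enzymes, most of them as inactive zymogens, pack them into zymogen granules and secrete them towards the gut. The enzymes split proteins (trypsins, chymotrypsins, elastases, carboxypeptidases), fats (lipases with colipase), starch (amylases) and RNA (ribonuclease). Islets release hormones into the blood: insulin and amylin from beta cells, glucagon from alpha cells, somatostatin from delta cells and pancreatic polypeptide from PP cells. The spleen makes none of these enzymes as a characteristic product, and the tail of the pancreas lies close to it.

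The libraries held between 14968605 and 18692809 counts. Fpr2 had 537, 479 and 477 reads in WT and 0 in all 4 Fpr2KO libraries, as labelled. The 13 genes of a spleen identity list, among them the B cell gene Cd79a, the red pulp macrophage gene Spic and the spleen organiser gene Tlx1, had at least 282 reads each in every library. Levels below are counts per 1e6 counts (CPM) on TMM-scaled library sizes, and 3 reads in a library, taken as the floor, corresponded to between 0.156 and 0.201 CPM. Intervals are exact 95% intervals and, like the floor, cover counting error only. In bulk RNA, fewer cells of a type and less RNA per cell cannot be told apart.

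Exocrine pancreas transcripts were high in 2 of the 4 Fpr2KO libraries. The 31 genes together summed to 1133 CPM in Fpr2KO replicate 1 and 627 CPM in replicate 2. In the other 5 libraries the sum was 34.9, 51.1 and 26.7 CPM in WT replicates 1 to 3 and 43.4 and 42.4 CPM in Fpr2KO replicates 3 and 4. The 2 high libraries thus stood apart from a range that WT and the remaining Fpr2KO libraries shared. As a share of all counts of the library, the genes took 0.112% in Fpr2KO replicate 1, 0.0663% in replicate 2 and between 0.00261% and 0.00470% elsewhere. All 25 exocrine genes were higher in both Fpr2KO replicate 1 and replicate 2 than in any of the other 5 libraries, and all 25 were highest in replicate 1. Of these 25, 20 had at most 7 reads in each of the other 5 libraries, and 9 had none there.

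**Figure D1:**
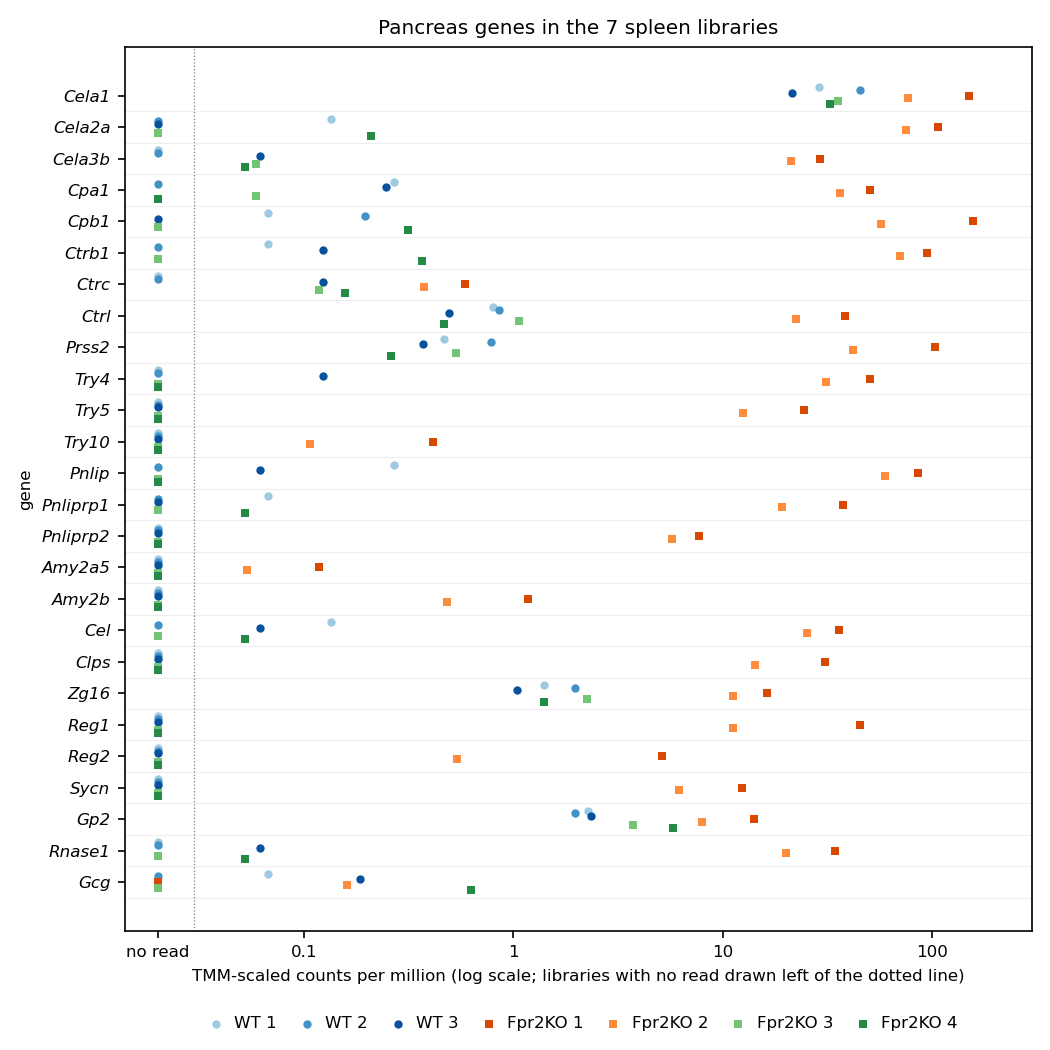
TMM-scaled CPM (log scale) of the 26 genes with a read in any library, 1 row per gene and 1 point per library (circles WT, squares Fpr2KO), with libraries without a read left of the dotted line. Fpr2KO replicates 1 and 2 lie to the right of the other 5 libraries in all 25 exocrine rows, while Cela1, Zg16, Gp2, Ctrl and Prss2 also have reads in every library and Gcg follows no such order.

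The trypsins are the proteases that activate the other zymogens. Prss2, the anionic trypsinogen gene (chromosome 6, 41521787 to 41525079, GRCm38), stood at 104 CPM in Fpr2KO replicate 1 and 41.9 CPM in replicate 2. In the other libraries it was at 0.469, 0.786 and 0.369 CPM in WT and at 0.533 and 0.261 CPM in Fpr2KO replicates 3 and 4, so that it was detected in all 7. Replicate 1 was 132 times and replicate 2 53.3 times the highest of the other 5. Try4 (41302269 to 41305532) had 854 and 582 reads in Fpr2KO replicates 1 and 2, 2 reads in WT replicate 3 and 0 in the rest. Try5 (41311233 to 41316841) had 417 and 233 reads and none elsewhere, which is at least 122-fold and 62.2-fold above the floor of the other libraries. Try10 (41354105 to 41357914) had 7 and 2 reads and none elsewhere. The 4 genes lie on chromosome 6 inside the T cell receptor beta locus, with 34 annotated receptor segments before them and 19 after them.

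Because these trypsin genes are close copies, how reads are divided among them is uncertain. The first 60 coding bases, from the start codon of the GENCODE M21 transcripts, are shown because they let the likeness be seen; capitals mark bases unlike Prss2, and the last line is a further trypsinogen-like gene, chosen after its values were seen.
Prss2: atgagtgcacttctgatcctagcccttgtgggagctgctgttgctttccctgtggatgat
Try4: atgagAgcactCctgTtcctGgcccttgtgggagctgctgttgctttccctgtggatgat
Try5: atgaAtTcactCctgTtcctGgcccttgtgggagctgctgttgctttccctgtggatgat
Try10: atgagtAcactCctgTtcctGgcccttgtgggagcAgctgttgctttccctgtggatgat
2210010C04Rik: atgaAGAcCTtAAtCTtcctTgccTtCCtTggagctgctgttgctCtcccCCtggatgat
Over the whole coding sequence Try4 and Try5 were 97.4% identical, with an unbroken shared run of 274 bases, and Prss2 and Try4 were 91.7% identical. Of all 50-base windows in the annotated transcripts, 65.6% of those of Try4, 47.6% of Try5 and 40.8% of Try10 also occur in a transcript of another gene, against 7.83% for Prss2. The more divergent 2210010C04Rik (75.6% identical to Prss2) had 1265 and 763 reads in Fpr2KO replicates 1 and 2 and at most 5 in any other library.

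Chymotrypsins and elastases are the other serine proteases of pancreatic juice. Ctrb1, chymotrypsinogen B (chromosome 8, 111686519 to 111691010), stood at 94.2 and 70.6 CPM in Fpr2KO replicates 1 and 2. Elsewhere it had 1, 0 and 2 reads in WT and 0 and 7 reads in Fpr2KO replicates 3 and 4. Ctrl, a chymotrypsin-like gene (chromosome 8, 105932003 to 105933862), stood at 38.2 and 22.4 CPM in the same 2 libraries. It was also present at 0.804, 0.852 and 0.492 CPM in WT and at 1.07 and 0.469 CPM in Fpr2KO replicates 3 and 4. Ctrc, chymotrypsin C, had only 10 and 7 reads in Fpr2KO replicates 1 and 2 and up to 3 elsewhere. Its annotated exons overlap those of Cela2a on the same strand and Casp9 on the other strand over 21.4% of their length, so its reads are uncertain.

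Cela2a (chromosome 4, 141814962 to 141826160) stood at 106 and 74.9 CPM in Fpr2KO replicates 1 and 2, with 2, 0 and 0 reads in WT and 0 and 4 reads in Fpr2KO replicates 3 and 4. Cela3b was at 29.1 and 21.1 CPM and had at most 1 read in any other library. Cela1 (chromosome 15, 100674421 to 100687921) differed from these relatives in having many reads everywhere. It stood at 150 CPM in Fpr2KO replicate 1 and 76.7 CPM in replicate 2. The other libraries held 28.8, 45.3 and 21.4 CPM in WT and 35.5 and 32.6 CPM in Fpr2KO replicates 3 and 4. Replicate 1 was 3.32 times and replicate 2 1.69 times the highest of these 5, against 510 and 359 times for Cela2a.

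Carboxypeptidases trim amino acids from the ends of peptides. Cpb1, which takes basic residues, had the highest level of the 31 genes in Fpr2KO replicate 1 on the CPM scale, 157 CPM, and 56.9 CPM in replicate 2. It had 1, 3 and 0 reads in WT and 0 and 6 reads in Fpr2KO replicates 3 and 4. Cpa1 stood at 50.6 and 36.4 CPM in the 2 high libraries, with 4, 0 and 4 reads in WT and 1 and 0 reads in the remaining Fpr2KO libraries.

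Fat digestion was represented by 5 genes. Pnlip, pancreatic lipase (chromosome 19, 58652498 to 58681788), stood at 85.8 and 59.8 CPM in Fpr2KO replicates 1 and 2 and had 4, 0 and 1 reads in WT and none in Fpr2KO replicates 3 and 4. Clps, its cofactor colipase, was at 30.8 and 14.2 CPM with no read in the other 5 libraries, at least 153-fold and 70.7-fold above their floor. Cel, the bile salt-dependent lipase, was at 36.1 and 25.4 CPM with up to 2 reads elsewhere. The lipase relatives Pnliprp1 (37.7 and 19.3 CPM) and Pnliprp2 (7.71 and 5.74 CPM) had at most 1 read in any other library. All 5 were close to 0 wherever the sum over the 31 genes was low.

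Amylase, a major product of acinar cells, was nearly missing from the counts. Amy2a5 had 2 and 1 reads in Fpr2KO replicates 1 and 2, Amy2b, annotated as a pseudogene, 20 and 9, and both had none elsewhere. The coding sequence of Amy2a5 is 100% identical to those of Amy2a2, Amy2a3 and Amy2a4, which had 0 reads in all 7 libraries, and 53.5% of its 50-base windows occur in another gene. The sources used here do not say how reads that match several genes were counted, so these low amylase counts cannot be read as low amylase RNA.

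Among the other granule products, Rnase1, the pancreatic ribonuclease, had 583 and 372 reads in Fpr2KO replicates 1 and 2, with at most 1 read in any other library. Sycn, which encodes the granule protein syncollin, was at 12.3 and 6.17 CPM with no read elsewhere. Zg16, a lectin of granule membranes that is also made in the gut, was at 16.3 and 11.2 CPM. It had reads in every other library too, at 1.41, 1.97 and 1.05 CPM in WT and 2.25 and 1.41 CPM in Fpr2KO replicates 3 and 4. The regenerating genes Reg1 and Reg2, whose products are known from injured pancreas, had no read outside the 2 high libraries. Reg1 stood at 45.2 and 11.2 CPM there, and Reg2 at 5.12 and 0.537 CPM.

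Gp2, the main glycoprotein of zymogen granule membranes and also a marker of gut M cells, was the only one of the 25 exocrine genes to be higher in every Fpr2KO library than in every WT library. It stood at 2.28, 1.97 and 2.34 CPM in WT and at 14.1, 7.99, 3.73 and 5.79 CPM in Fpr2KO replicates 1 to 4. Fpr2KO replicates 3 and 4, in which the enzymes with few reads elsewhere stayed near 0, were thus also above WT for Gp2. Among genes tested by edgeR, 2.73% showed this order of the groups. That share covers tested genes only, and 5 of the 25 were tested, so the like count is 1 in 5. With so few genes tested, this count was not read as a result.

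Islet hormones did not accompany the enzymes. Ins1, Ins2, Ppy, Sst and Iapp had 0 reads in all 7 libraries, so each lay below the floor of 0.156 to 0.201 CPM. Gcg, the glucagon gene, had 1, 0 and 3 reads in WT and 0, 3, 0 and 12 reads in Fpr2KO replicates 1 to 4, with its highest count in replicate 4, not in the libraries rich in enzymes. In Fpr2KO replicate 1 the hormones held 0 of 19239 reads of the 31 genes, with an exact upper limit of 0.0192%. In replicate 2 they held 3 of 11694 reads, or 0.0257% (exact interval 0.00529% to 0.0750%).

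The make-up of the reads separated the same 2 libraries from the rest. In the other 5 libraries most reads of the 31 genes came from Cela1, with 82.7%, 88.7% and 80.2% in WT and 82.0% and 76.9% in Fpr2KO replicates 3 and 4. In Fpr2KO replicates 1 and 2 Cela1 took 13.3% (exact interval 12.8% to 13.8%) and 12.2% (11.6% to 12.8%). Cela1, Gp2, Zg16 and Ctrl, grouped after their values were seen, together held between 94.7% and 98.2% of the reads in the 5 libraries, against 19.3% and 18.9% in Fpr2KO replicates 1 and 2. The remaining 27 genes had only 23, 15 and 23 reads in WT and 13 and 41 reads in Fpr2KO replicates 3 and 4. In Fpr2KO replicates 1 and 2 they had 15519 and 9488 reads.

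By enzyme class, Fpr2KO replicate 1 held 25.2% elastase, 18.4% carboxypeptidase, 17.5% lipase with cofactor, 15.8% trypsin and 11.7% chymotrypsin reads. Replicate 2 held 27.5% elastase, 14.9% carboxypeptidase, 19.8% lipase with cofactor, 13.7% trypsin and 14.9% chymotrypsin. Elastases led in both. Summing for each gene the smaller of 2 libraries' shares gives the part of the make-up that they have in common. It was 88.0% between Fpr2KO replicates 1 and 2, between 86.2% and 96.3% over the 10 pairs among the other 5 libraries, and between 18.9% and 22.5% over the 10 pairs that set 1 of the 2 high libraries against 1 of the others. By this measure each set of libraries was alike within itself and unlike the other, though 1 set is a single pair. Among the 5 libraries the common part was mostly Cela1. Gp2 still ranged there from 3.85% (exact interval 2.61% to 5.45%) in WT replicate 2 to 13.7% (11.4% to 16.2%) in Fpr2KO replicate 4. The sets were known from the levels of such genes beforehand, so the contrast between them is a description only. Both high libraries are Fpr2KO, so likeness across genotypes can be read from the other 5 alone.

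**Figure D2:**
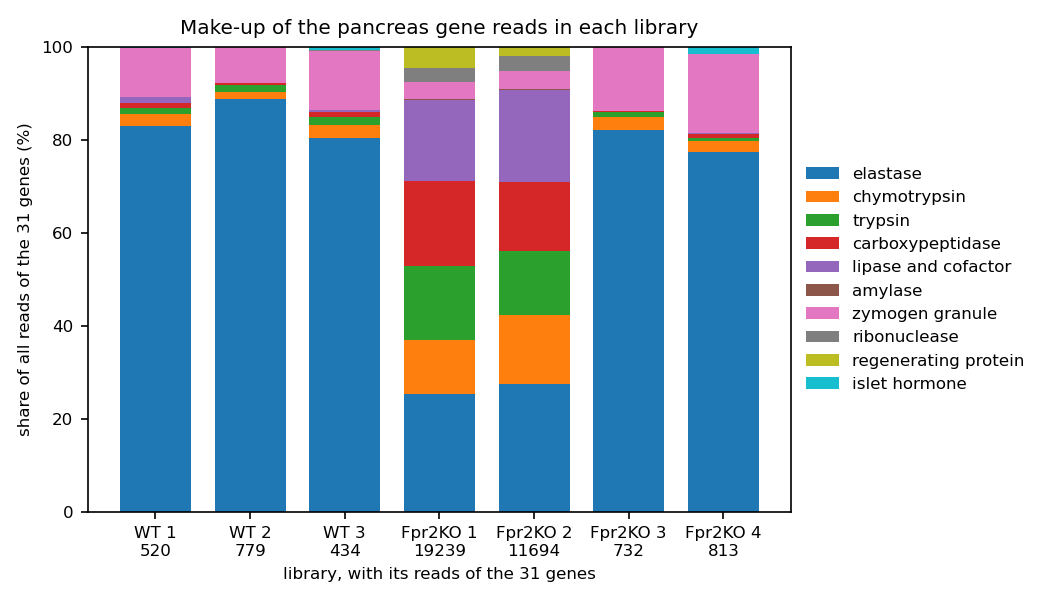
Share (%) of all reads of the 31 genes that fell to each class of product, 1 bar per library, with the number of reads under each bar. Elastases, almost all Cela1, fill 77.5% to 88.7% of the 5 bars with few reads, and 25.2% and 27.5% of those of Fpr2KO replicates 1 and 2.

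Levels can be compared between genes only per length. Divided by merged exon length, Prss2 (127 CPM per kilobase) and Ctrb1 (107) led in Fpr2KO replicate 1, followed by Cela1 (65.2), Try4 (62.8), Cela2a (61.7), Clps (50.5), Reg1 (49.9) and Cpb1 (47.9). In replicate 2 Ctrb1 (80.4 CPM per kilobase) came before Prss2 (51.4), Cela2a (43.5), Try4 (39.0) and Cela1 (33.3). On this scale trypsins made up 25.9% and 22.5% of the 2 libraries and elastases 17.2% and 19.3%. Cela1 alone led the other 5 libraries, at between 9.29 and 19.6 CPM per kilobase.

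Fpr2KO replicate 1 held more of the enzymes than replicate 2, but not by the same factor for each. The ratio of the summed CPM was 1.81 (exact interval 1.76 to 1.85). Among the 20 genes with at least 20 reads in both libraries the median ratio was 1.71, and the range ran from 1.33 for Ctrb1 to 4.03 for Reg1. Reg2, with 87 and 10 reads, had a ratio of 9.55 (4.95 to 20.6). The interval of the gene lay above that of the sum for 5 of the 25 genes with a read in both, namely Reg1 (3.45 to 4.71), Reg2, Cpb1 (2.76, interval 2.57 to 2.97), Prss2 (2.48, interval 2.27 to 2.70) and Clps (2.17, interval 1.87 to 2.52). It lay below for 8, which were Cela2a, Cela3b, Cpa1, Ctrb1, Pnlip, Pnliprp2, Cel and Zg16, and overlapped for the other 12. The 2 regenerating genes together had a ratio of 4.28 (3.68 to 4.99) and the chymotrypsins one of 1.42 (1.34 to 1.52). With 1 library each, these differences describe the libraries beyond counting error and have no replicate check.

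**Figure D3:**
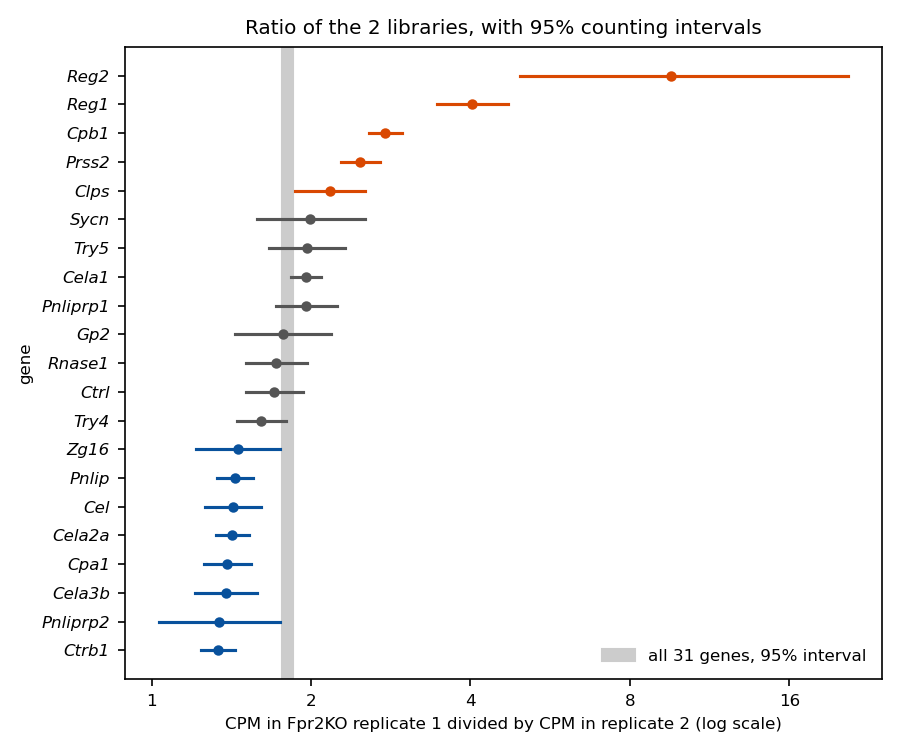
Ratio (log scale) of CPM in Fpr2KO replicate 1 to CPM in replicate 2 for the 21 genes with at least 10 reads in both, with exact 95% counting intervals, and the interval of the sum over all 31 genes as a grey band; intervals wholly above it are orange and wholly below it blue. The regenerating genes Reg1 and Reg2 lie farthest above the band, at 4.03 and 9.55, and Ctrb1 lies lowest at 1.33.

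The transcription factor complex PTF1 is known to bind an E-box and a neighbouring TC box in front of acinar enzyme genes. The 250 bases before the gene start are shown for the 4 exocrine genes with the most reads per kilobase over all libraries. They are from RefSeq (GRCm38.p6), on the strand of the gene, and that rank is the reason for showing these 4. Capitals mark the E-box CACCTG, which reads as CAGGTG from the other strand. They also mark the TC box TTTCCC, which reads as GGGAAA from the other strand, and the TATA box TATAAA, which reads as TTTATA from the other strand.
Ctrb1, chr8:111691011-111691260, minus strand: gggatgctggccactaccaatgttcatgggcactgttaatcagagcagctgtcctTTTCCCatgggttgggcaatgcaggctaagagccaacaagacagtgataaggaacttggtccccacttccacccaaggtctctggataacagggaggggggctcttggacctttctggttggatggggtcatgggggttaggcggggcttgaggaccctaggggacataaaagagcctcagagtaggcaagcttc
Prss2, chr6:41521526-41521775, plus strand: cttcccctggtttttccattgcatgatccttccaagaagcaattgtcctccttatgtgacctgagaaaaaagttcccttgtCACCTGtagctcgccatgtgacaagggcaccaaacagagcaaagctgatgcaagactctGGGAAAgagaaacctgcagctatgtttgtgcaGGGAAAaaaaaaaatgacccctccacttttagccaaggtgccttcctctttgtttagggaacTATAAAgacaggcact
Cela1, chr15:100687921-100688170, minus strand: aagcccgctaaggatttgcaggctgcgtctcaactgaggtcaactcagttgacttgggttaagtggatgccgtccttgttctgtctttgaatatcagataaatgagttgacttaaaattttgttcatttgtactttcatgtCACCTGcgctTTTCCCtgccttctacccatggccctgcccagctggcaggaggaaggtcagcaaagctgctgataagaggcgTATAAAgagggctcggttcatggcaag
Cela2a, chr4:141826006-141826255, minus strand: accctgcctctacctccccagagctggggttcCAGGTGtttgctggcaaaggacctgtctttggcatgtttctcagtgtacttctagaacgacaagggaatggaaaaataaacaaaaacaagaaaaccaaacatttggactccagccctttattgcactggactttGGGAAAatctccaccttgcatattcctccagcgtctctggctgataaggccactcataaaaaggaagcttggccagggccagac
In Cela1 the E-box begins 109 bases and the TC box 99 bases before the start, and a TATA box begins 27 bases before it. The letters of the E-box and the TC box do not overlap. Prss2 holds an E-box 169 bases, TC boxes 110 and 78 bases and a TATA box 16 bases before its start. Of the 25 exocrine genes 20 had a window, and Ctrc, Try5, Try10, Clps and Zg16 had none. The E-box was found in 11 of the 20, against 17.2% of all 32851 windows. The TC box was in 7 of the 20, against 21.9%, and the TATA box in 9 of the 20, against 12.4%. Both E-box and TC box occurred in 4 of the 20 (Cela1, Cela2a, Prss2 and Cel), against 3.61% of all windows. Such a match describes letters in the window, and nothing about the factor was read from it.

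A further list of acinar secretory genes was read in the same way. Of its 28 genes found in the table, 12 were higher in both Fpr2KO replicates 1 and 2 than in any other library, and 6 had no read at all. Others did not follow this order. Erp27 was at 2.83 and 1.66 CPM in these 2 libraries, against 2.75 CPM in WT replicate 1. Pdia2 was at 6.00 and 1.45 CPM, against 2.88 CPM in WT replicate 2. Amy1 was at 1.12 and 1.23 CPM, against 1.21 CPM in WT replicate 1. Gnmt was at 0.412 and 0.429 CPM, against 0.533 CPM in Fpr2KO replicate 3. The list summed to 156 and 81.9 CPM in these 2 libraries and to between 9.12 and 13.5 CPM in the others. The trypsin inhibitor gene Spink1, whose product guards against early activation, had 38 and 10 reads and none elsewhere, a ratio of 4.17 (2.04 to 9.38) between the 2 libraries. Reg3b, of the same family as Reg1, had 20 reads in replicate 1 and none in any other library, and Reg3d had 15 and 3. The tissue kallikrein gene Klk1 was at 22.2 and 9.98 CPM, at 7.58 and 5.58 CPM in Fpr2KO replicates 3 and 4, and at 3.55, 5.11 and 4.43 CPM in WT.

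A search of all 55414 genes for the same pattern, at least 20 reads in both Fpr2KO replicates 1 and 2 and at least 10 times the highest other library in each, returned 23 genes. Of these, 17 are among the 31, and the other 6, among them 2210010C04Rik, Dmbt1, Serpini2, Cuzd1 and Tff2, all belong to the further acinar list. Dmbt1 encodes a scavenger receptor glycoprotein of secretory epithelia, Serpini2 a serine protease inhibitor of the pancreas and Tff2 a trefoil peptide. No gene outside the acinar lists met the rule. Because these lists were chosen with earlier results of these data known, this describes the search and is no independent check.

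Lists for other pancreatic cell types and tissues were summed in the same way. The acinar transcription factor genes Ptf1a (0 to 1 reads) and Rbpjl (0 to 3 reads) were hardly detected in any library, and Bhlha15 and Xbp1, which plasma cells also express, had their highest CPM in WT replicate 3. Duct genes, 10 in all, summed to 10.3 and 14.4 CPM in Fpr2KO replicates 1 and 2 and to between 12.9 and 22.0 CPM elsewhere. Of 21 islet genes besides the hormones, 10 had no read in any library, Pdx1 and Pcsk2 among them, and 0 were higher in both of these libraries than in the rest. Mesothelial genes, 7 in all, were at 16.4 and 24.1 CPM against 23.2 to 51.6 CPM elsewhere, and 10 adipocyte genes at 36.7 and 41.2 CPM against 39.4 to 79.3 CPM, with the highest sum in WT replicate 3. Lipe (26.0 and 24.5 CPM in Fpr2KO replicates 1 and 2) and Fabp4 (9.89 and 14.2 CPM) held most of the adipocyte sum. Epcam (5.53 and 9.28 CPM) was the largest part of the duct sum and Wt1 (10.5 and 10.1 CPM) of the mesothelial sum. These 3 sums thus say little about those cell types. Kidney genes were at 0.235 and 0.858 CPM against 0.574 to 1.27 CPM elsewhere. Stomach genes were at 0.765 and 0.858 CPM, the latter the highest of the 7 libraries and the former below Fpr2KO replicate 3, and 1 of the 9 found, the gastric proton pump gene Atp4a, was higher in both libraries (13 reads each) than in the others (8 to 9 reads). Fpr2KO replicate 2, but not replicate 1, had the highest sum of the 7 libraries for intestine (141.9 CPM against 111.2 to 126.8 CPM) and salivary gland (1.23 CPM, with 6 of 7 genes at no read in any library). The intestine sum was nearly all Dpp4, at 140.6 CPM in replicate 2 and between 110.2 and 125.8 CPM in the rest, so it says little about intestine. Liver genes were at 462.1 and 386.8 CPM against 418.5 to 546.1 CPM, but Trf alone held 461.1 and 385.8 CPM of this. The other liver genes had at most 10 reads in any library. Among them Alb, Ttr, Fgb and Cyp3a11 had reads in Fpr2KO replicate 2 alone (1 to 6), and Apoa1 in replicate 1 alone (3). Haemoglobin transcripts were at 47066 CPM in Fpr2KO replicate 1 but 9551 CPM in replicate 2, within and below the range of 14161 to 86313 CPM of the others. Their part in the enzyme levels was not tested.

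The labels imply the comparison of Fpr2KO with WT. The low count filter of edgeR left 5 of the 31 genes to test in it, and the other 26 had no test there. The 5 were Cela1, Gp2, Zg16, Ctrl and Prss2, which are the 5 with reads in every library and so do not stand for the rest. Prss2 passed the filter only through Fpr2KO replicates 1 and 2, as it was no longer tested when either was left out. Its part in the direction and median below therefore draws on the libraries known to be high. All 5 had a higher fitted level in Fpr2KO, with a median log2 fold change of 2.40, where the median of all 16089 genes tested was 0.00 and 48.6% were higher. The genes were chosen with the standing of Fpr2KO replicates 1 and 2 known. The shared direction and the distance from that median are therefore a description only. In edgeR's quasi-likelihood test 0 of the 5 were called at an adjusted p under 0.05, and 0 of all genes tested were called as higher (0%) against 6 as lower (0.0373%). At an unadjusted p under 0.05 there was 1 of the 5, Gp2, against 4.98% of all genes.

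Gp2 had 2.19 ± 0.200 CPM in WT (SD, n = 3) and 7.91 ± 4.50 CPM in Fpr2KO (n = 4), a difference of 1.84 on the log2 scale (SE 0.44, unadjusted p = 0.00312, adjusted p = 0.576 in edgeR). Cela1 had 31.8 ± 12.2 CPM in WT and 73.8 ± 54.9 CPM in Fpr2KO, a log2 difference of 1.21 (SE 0.67, adjusted p = 1.0 in edgeR). Fpr2KO replicates 3 and 4 lay inside the WT range for this gene. Zg16 (2.40, SE 1.02), Ctrl (4.43, SE 1.89) and Prss2 (6.06, SE 2.57) had large fold changes with standard errors to match, each with an edgeR adjusted p of 1.0. Without both Fpr2KO replicates 1 and 2 the log2 fold change was 1.12 for Gp2, 0.10 for Cela1, 0.10 for Ctrl and 0.31 for Zg16, while Prss2 was no longer tested. Gp2 thus still differed in the same direction, at an unadjusted p of 0.00395 and an adjusted p of 1.0 in edgeR.

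**Figure D4:**
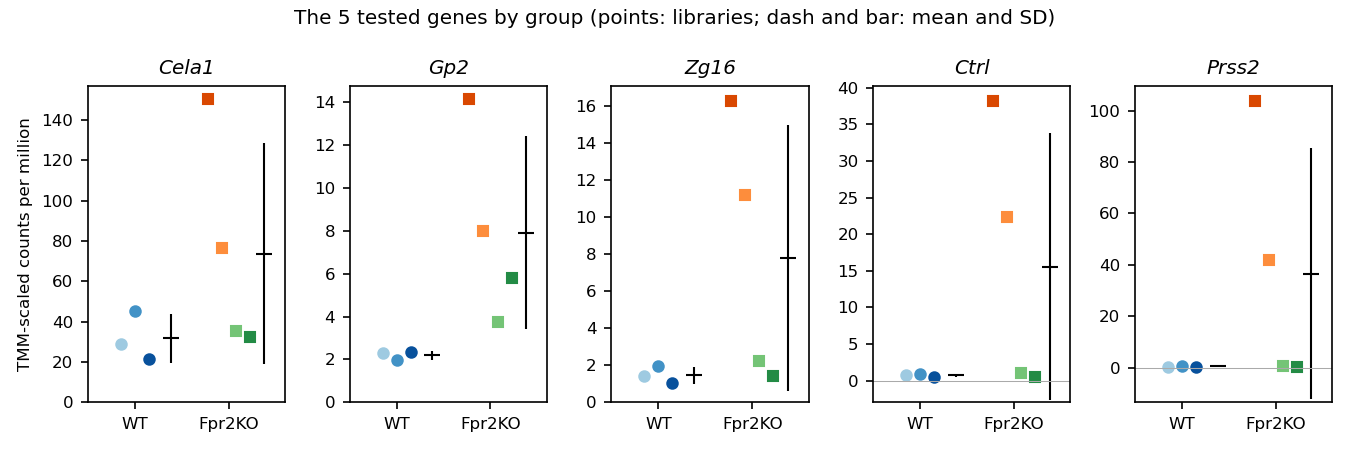
TMM-scaled CPM of the 5 genes that passed edgeR's low count filter, by group, 1 point per library (orange squares Fpr2KO replicates 1 and 2, green squares replicates 3 and 4), with the mean and SD beside each group. The green squares lie close to the WT circles for Cela1, Zg16, Ctrl and Prss2, inside their range for Cela1 alone, and above all 3 circles for Gp2.

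The tool mattered for the count of calls. DESeq2 called 4 of the 21 members that it gave an adjusted p, Gp2 (log2 fold change 1.86, adjusted p = 0.00162), Clps (adjusted p = 5.34e-07), Try5 (1.10e-06) and Reg1 (3.55e-07), where it called 0.0631% of all genes as higher. Clps, Try5 and Reg1 have reads in 2 of the 7 libraries and none in WT, so their fitted fold changes are not bounds and are not given. Their adjusted p-values rest on those fits, and on the 2 libraries known beforehand to stand apart, so they are no independent result. Sycn and Pnliprp2, with reads in the same 2 libraries alone, were not called (DESeq2 adjusted p = 0.760 and 0.870), and neither was Reg2. In edgeR without a low count filter, 26 members were fitted and 0 were called, against 0.0739% of the 28429 genes fitted. An unadjusted p under 0.05 was reached by 3 of the 26, Gp2, Ctrc and Try10, against 4.22% of all genes.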

How the data were processed

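Polyadenylated RNA of mouse spleen was sequenced in 3 WT and 4 Fpr2KO samples. The authors deposited raw read counts per Ensembl gene, with a column for each sample. Tools named in the submitters' processing notes are FastQC 0.10.1, for read quality, and HTSeq 0.10.0, for counting, and the build named is mm10 (GRCm38). The sources used here give no aligner, annotation release, strand setting or treatment of reads with several matches. Symbols, positions and exon lengths came from GENCODE M21 (GRCm38), which matched 52133 of 55414 gene IDs and 99.8% of the counts. Promoter windows came from RefSeq (GRCm38.p6).

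All genes were fitted with edgeR 4.0.16 in R 4.3.3 (TMM, filterByExpr at its defaults, robust quasi-likelihood F test, Benjamini-Hochberg adjustment over all genes tested, called under 0.05), which was tested on simulated data. CPM values use TMM-scaled library sizes. Coding sequences were aligned with Biopython 1.88 and intervals made with scipy 1.17.1. Of the 31 genes, the 24 with at least 10 reads in a library were to be given by their values and the others by their counts. Genes like them were sought by the rule stated with the result, and some genes of the other lists were named after their values were seen. The members and gene lists were chosen with earlier results of these data known. Alternatives were RLE scaling, other low count filters, DESeq2 1.42.0, non-robust estimation, each library left out, both Fpr2KO replicates 1 and 2 left out, and a replicate block. One gene of the further acinar list is counted in its sums but not reported by name here.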

Additional observations from a re-analysis of the deposited data

Results flagged for a closer look

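Reg2, a regenerating protein gene, stood at 5.12 CPM in Fpr2KO replicate 1, far from the other 3 Fpr2KO libraries, of which the nearest, replicate 2, was at 0.537 CPM. The gap was 0.895 of the whole range of the 4 libraries. A gap of this kind marks about 1 in 20 groups by chance, a rate that does not carry over here, since replicate 1 was known to stand apart when the genes were chosen.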

How the results depend on the processing

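The count of called members was 0 with edgeR and 4 with DESeq2, and it stayed at 0 in the 12 other fits, namely RLE scaling, both other low count filters, non-robust estimation, the fit without both Fpr2KO replicates 1 and 2, and the 7 fits that each left out 1 library (range 0 to 0), as well as in the replicate block. With a WT library left out, 20 members passed the filter in place of 5. Same-numbered libraries did not deviate together (r of 0.08, -0.43 and -0.07 across genes). These values were taken after centring within each small group, so they cannot exclude a pairing by number. The replicate block, which leaves Fpr2KO replicate 4 out of the estimate, gave 0 called members. Without Fpr2KO replicate 1 the log2 fold change was 0.62 for Cela1, 3.50 for Ctrl, 1.77 for Zg16 and 1.42 for Gp2, and Prss2 was no longer tested without replicate 1 or without replicate 2. Without genes of close copies the ratio of Fpr2KO replicate 1 to replicate 2 was 1.76, and on plain library totals 1.69. Per kilobase, Cela1 took 75.2%, 82.0% and 71.6% in WT and 7.75%, 7.16%, 74.1% and 70.1% in Fpr2KO. Depth limits what can be said of genes at 0 reads to below the floor.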
